A study of Homo sapiens with 6 samples.

Results

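The BCL2 family decides whether the mitochondrial outer membrane is opened during apoptosis. Anti-apoptotic members, here called guardians, hold the pore-forming effectors BAX and BAK1 in check. The BH3-only proteins sense damage or stress and bind guardians or effectors through a short helix, the BH3 motif. Glioblastoma cells are known to lean on guardians to survive drug treatment. The genes described are BCL2, BCL2L1, BCL2L2 and MCL1 (guardians), BAX and BAK1 (effectors), and BID, BCL2L11, BBC3 and PMAIP1 (BH3-only). They were matched by symbol with no rule on their values, but the list was chosen with earlier results of these data known. All 10 were found among the 20330 Ensembl genes of each table, and all 10 passed the filter on low values.

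RNA was sequenced from U251 cells with stable overexpression of XLOC013218, a long noncoding RNA, and from control U251 cells, in 3 libraries each. U251 is an established human glioblastoma line. The sources used here do not state whether the overexpressing cells are 1 clone or a selected population, or what the control cells carry. The labels describe poly(A)-selected libraries, whereas the series' design text describes cytoplasmic RNA prepared without that selection.

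Levels are FPKM, that is, fragment counts divided by transcript length and by library size, so genes can be compared per length. Summed FPKM lay between 614027 and 621922 in the overexpression libraries and between 598683 and 620473 in the control libraries, and the depth in reads is unknown. The glioma markers VIM, CD44, NES and SOX2 were present in all 6 libraries, the lowest value of the 4 being 77.7 FPKM. GFAP, the astrocyte filament protein, had 30.1, 14.4 and 20.4 FPKM in overexpression libraries, against 34.7, 46.0 and 44.1 FPKM in control libraries. SOX2 had 102, 105 and 98.1 FPKM in overexpression libraries, against 117, 119 and 114 FPKM in control libraries, while VIM, CD44 and NES overlapped. Neither GFAP nor SOX2 passed in the comparison described below (limma adjusted p = 0.107 and 0.120). S100B, another glial marker, stayed under 1 FPKM in every library. Of 11 markers of immune, endothelial, neuronal, oligodendrocyte and epithelial cells, 10 were listed, with a summed level between 2.40 and 3.11 FPKM in overexpression libraries and between 1.99 and 2.98 FPKM in control libraries. CD3E, the T cell marker, was listed at 0 in all 6.

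The BH3 motif is what these proteins share, and its coding sequence is given here for each member. It was read from GENCODE 29 transcripts on GRCh38 by a search for a leucine codon, any 3 codons, a glycine codon and an aspartate codon. The core of 6 codons is in capitals, with 5 codons on each side, 5′ to 3′ on the coding strand. Each stretch lies within 1 coding exon.
BCL2 (chr18:63318346-63318393, minus strand): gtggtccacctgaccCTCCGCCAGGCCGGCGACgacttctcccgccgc
BCL2L1 (chr20:31721919-31721966, minus strand): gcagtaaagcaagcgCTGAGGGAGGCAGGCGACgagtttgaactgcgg
BCL2L2 (chr14:23307888-23307935, plus strand): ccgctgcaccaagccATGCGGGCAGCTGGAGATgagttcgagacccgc
MCL1 (chr1:150578862-150578909, minus strand): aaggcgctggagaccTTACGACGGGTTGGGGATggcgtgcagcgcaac
BAX (chr19:48955772-48955819, plus strand): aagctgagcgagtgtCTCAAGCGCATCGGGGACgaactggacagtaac
BAK1 (chr6:33575384-33575431, minus strand): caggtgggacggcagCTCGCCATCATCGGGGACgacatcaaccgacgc
BID (chr22:17739412-17739459, minus strand): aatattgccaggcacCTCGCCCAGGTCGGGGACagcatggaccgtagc
BCL2L11 (chr2:111150088-111150135, plus strand): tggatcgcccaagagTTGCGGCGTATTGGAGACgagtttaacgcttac
BBC3 (chr19:47226576-47226623, minus strand): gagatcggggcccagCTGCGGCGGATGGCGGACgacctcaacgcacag
PMAIP1 (chr18:59902658-59902705, plus strand): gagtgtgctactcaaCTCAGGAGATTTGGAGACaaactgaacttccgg
The pattern matched in 8 members. BCL2L2 has a methionine codon first and BBC3 an alanine codon in place of glycine, so both were found by a looser search that allows these. The strict pattern is not particular to the family: 2632 of 18885 coding genes hold it somewhere, or 13.9%. Of the 18 core bases, 14 were identical between BAK1 and BID and between BCL2 and BID, and 5 between BCL2L2 and BAK1. The search itself selected for the leucine, glycine and aspartate codons, so part of this identity was set in advance. The annotated proteins run from 54 residues for PMAIP1 to 350 for MCL1.

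Transcript levels spanned a wide range, with the same order of means in both groups. BAX averaged 157 FPKM over the 6 libraries and BCL2 2.06 FPKM, a ratio of 76.6. BAX, BCL2L1 and MCL1 stood in the top 10% of the 11731 tested genes by level, and BCL2 stood at rank 10924. From the top, the order was BAX, BCL2L1, MCL1, BID, PMAIP1, BAK1, BCL2L2, BCL2L11, BBC3 and BCL2. BAX lay above BCL2L1 in 5 of 6 libraries and BCL2L1 above MCL1 in 5 of 6, with overlapping ranges, so the order of these 3 is not fixed beyond their spread. Of the 9 neighbouring pairs, 5 did not overlap over the 6 libraries, and PMAIP1 with BAK1 and BBC3 with BCL2 overlapped as well, although their order was the same in all 6.

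**Figure D1:**
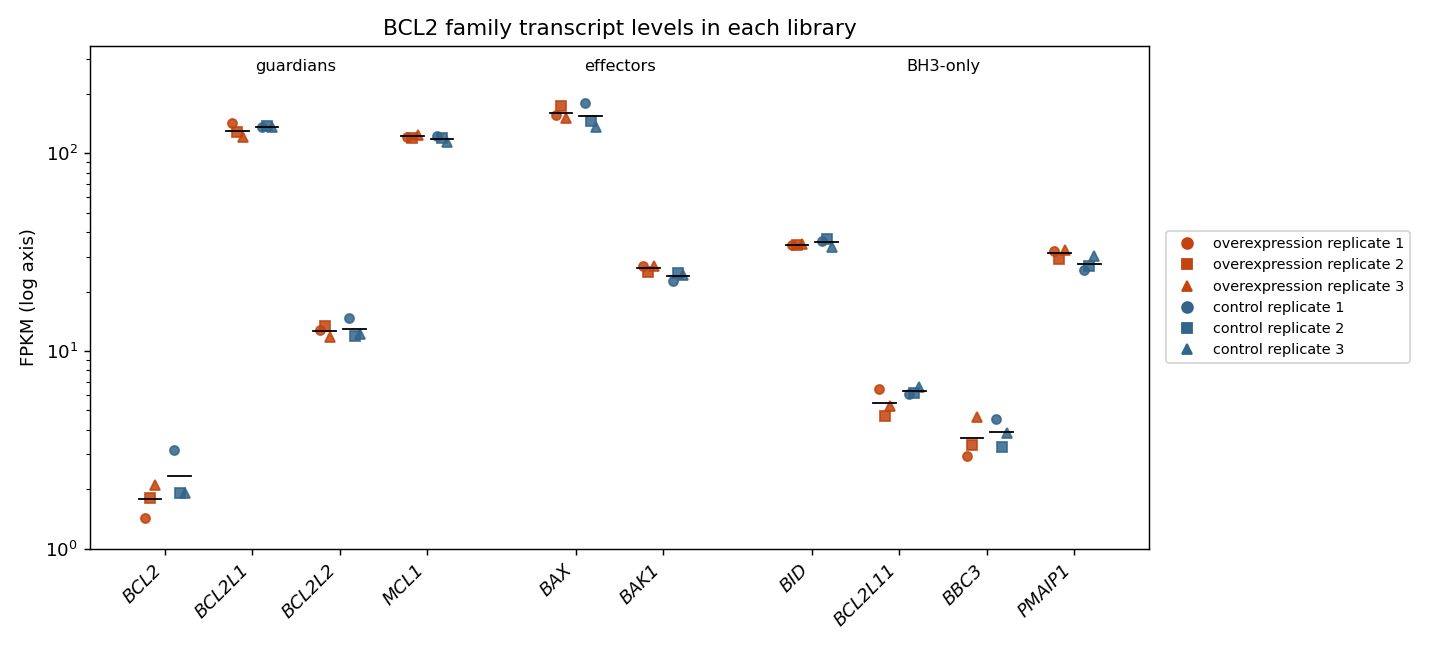
FPKM of the 10 family members on a log axis, with overexpression libraries in orange and control libraries in blue. Each point is 1 library and each bar the mean of 3. BAX, BCL2L1 and MCL1 lie above 114 FPKM in every library, and BCL2 lies between 1.42 and 3.17 FPKM.

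No family member was called as changed between the groups. The comparison asks which genes differ when XLOC013218 is overexpressed, and it was made with limma on log2(FPKM + 1), with Benjamini-Hochberg adjustment over all 11731 tested genes and a threshold of 0.05. Over all of these genes, 61 passed, or 0.52%, as 37 higher and 24 lower. With 1 library left out, that count was 14, 63 and 23 without overexpression replicates 1, 2 and 3, and 1, 1 and 2 without control replicates 1, 2 and 3. Of the 10 members, 0 passed, and 1 had an unadjusted p under 0.05, a level that 12.7% of all tested genes reached. The median log2 fold change of the members was -0.03, with 4 above 0 and 6 below, and that of all tested genes was -0.00078. The 95% intervals ran from -0.64 at the lowest to 0.34 at the highest on the log2(FPKM + 1) scale, which corresponds to folds of 0.643 and 1.26, and 9 of the 10 included 0. This scale understates the fold of genes at low levels such as BCL2 and BBC3. The labels do not say whether the libraries came from separate cultures, so these p-values measure only the spread between them. In this bulk RNA, fewer expressing cells and less RNA per cell cannot be told apart.

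**Figure D2:**
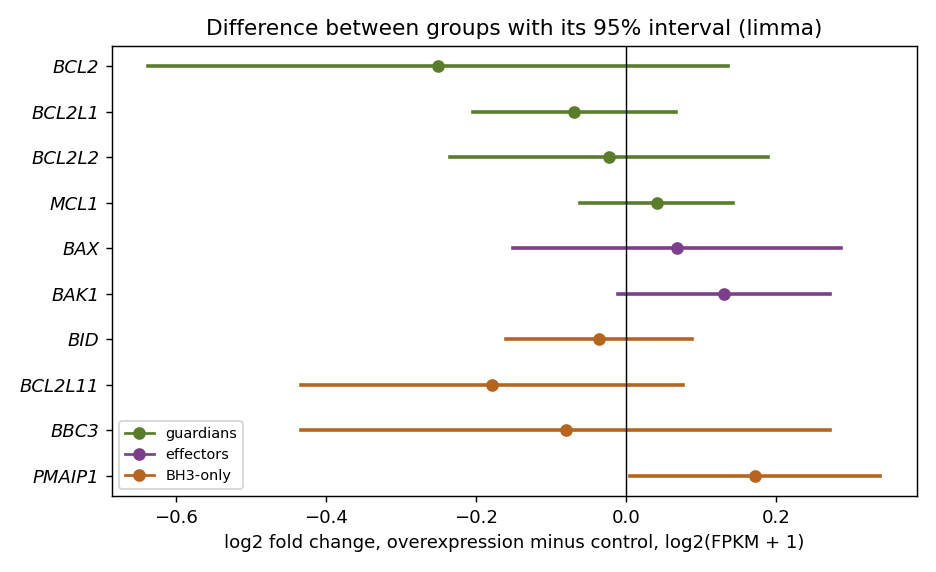
Log2 fold change of each member, overexpression minus control, on the log2(FPKM + 1) scale. Points are limma estimates and lines their 95% intervals, coloured by role. The interval of PMAIP1 runs from 0.01 to 0.34, and the other 9 include 0.

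Among the guardians described, BCL2, the founding member, was the lowest expressed. BCL2 had 1.42, 1.80 and 2.11 FPKM in overexpression libraries, against 3.17, 1.91 and 1.92 FPKM in control libraries. The groups overlapped, and control replicate 1 was the highest of the 6. The log2 fold change of BCL2 was -0.25 (95% interval -0.64 to 0.14, limma adjusted p = 0.600), and it was -0.08 without control replicate 1. BCL2L1, which encodes BCL-XL, was far more abundant. It had 142, 128 and 121 FPKM in overexpression libraries, against 137, 137 and 136 FPKM in control libraries. The 3 control values all lay within the range of the overexpression values, and the SD was 10.8 FPKM in overexpression and 0.362 FPKM in control libraries. The log2 fold change of BCL2L1 was -0.07 (95% interval -0.20 to 0.07, limma adjusted p = 0.689). FPKM per gene do not separate the long, protective BCL2L1 isoform from the short, pro-apoptotic one, and the annotation lists 9 transcripts for the gene.

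MCL1, a guardian with a short-lived protein, was among the steadiest members. It had 122, 120.3 and 124 FPKM in overexpression libraries, against 122, 119 and 114 FPKM in control libraries, with overlap. Its log2 fold change was 0.04 (95% interval -0.06 to 0.14, limma adjusted p = 0.769), and the residual SD was 0.04 on the log2 scale, against a median of 0.10 over all tested genes. BCL2L2, which encodes BCL-w, had 12.7, 13.4 and 11.8 FPKM in overexpression libraries, against 14.6, 11.9 and 12.1 FPKM in control libraries. The groups overlapped and the log2 fold change was -0.02 (95% interval -0.23 to 0.19, limma adjusted p = 0.946). BCL2L2 shares exons with the readthrough gene BCL2L2-PABPN1, listed at 11.3, 12.8 and 13.2 FPKM in overexpression libraries and at 9.84, 11.5 and 11.7 FPKM in control libraries, so the split of reads between them is uncertain. The sum of both was 24.0, 26.2 and 25.0 FPKM in overexpression libraries, against 24.5, 23.4 and 23.9 FPKM in control libraries, with a log2 fold change of 0.06 (limma adjusted p = 0.713). Thus the estimate for BCL2L2 changes sign with that choice and passes under neither. It was also above 0 without overexpression replicate 3, at 0.02, and without control replicate 1, at 0.07.

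Together the guardians summed to 278, 263 and 259 FPKM in overexpression libraries, against 277, 269.9 and 265 FPKM in control libraries. BCL2L1 and MCL1 made up 94.6% ± 0.346 of that sum in overexpression and 94.4% ± 0.709 in control libraries (SD, n = 3 each). BCL2 and BCL2L2 thus supplied little of the guardian mRNA in either group.

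The effectors form the pores. BAX, which moves from the cytosol to mitochondria, had 157, 174 and 151 FPKM in overexpression libraries, against 179.8, 146 and 136 FPKM in control libraries. Control replicate 1 was again the highest and the groups overlapped, with a log2 fold change of 0.07 (95% interval -0.15 to 0.29, limma adjusted p = 0.827). Its sign depended on single libraries: the value was -0.01 without control replicate 3 and 0.18 without control replicate 1. BAK1, the effector that resides in the mitochondrial membrane, had 27.0, 25.1 and 26.9 FPKM in overexpression libraries, against 22.7, 24.8 and 24.3 FPKM in control libraries. It was the only member whose groups did not overlap, all 3 overexpression values being higher. Groups without overlap were found for 18.9% of all tested genes, and higher ones for 8.81%. The log2 fold change of BAK1 was 0.13 (95% interval -0.01 to 0.27) and did not pass (limma adjusted p = 0.427). The exact two-sided permutation test gave p = 0.1 for BAK1, the smallest that 3 libraries against 3 allow. BAX supplied 85.9% ± 1.33 of the effector sum in overexpression libraries and 86.4% ± 2.11 in control libraries (SD, n = 3 each).

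Among the BH3-only members described, PMAIP1 came nearest to the threshold. PMAIP1 encodes NOXA, which binds MCL1 and promotes its degradation. It had 31.9, 29.1 and 32.4 FPKM in overexpression libraries, against 25.7, 26.9 and 30.1 FPKM in control libraries. The groups overlapped through control replicate 3, which exceeded overexpression replicate 2. The log2 fold change was 0.17 (SE 0.07, 95% interval 0.01 to 0.34). The unadjusted limma p for PMAIP1 was 0.0446, and limma adjusted p = 0.381. For PMAIP1 the exact two-sided permutation test gave p = 0.2. The ratio of MCL1 to PMAIP1 levels was 3.81, 4.13 and 3.82 in overexpression libraries, against 4.75, 4.43 and 3.79 in control libraries, again with overlap. The 3 genes whose centred profile over the 6 libraries was most like that of PMAIP1 were ZSCAN12, MRPL1 and MIPOL1, at root mean square differences between 0.0260 and 0.0285 on the log2 scale, and none of the 3 passed. They were picked for this likeness, so that outcome was largely set in advance. ZSCAN12 lay between 0.96 and 1.43 FPKM, near the filter on low values.

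BID, which caspase-8 cleaves to link death receptors to mitochondria, was the most abundant of the BH3-only members described. It had 34.5, 34.3 and 34.99 FPKM in overexpression libraries, against 35.9, 36.8 and 33.8 FPKM in control libraries. The overexpression values lay within the control range and the log2 fold change was -0.04 (95% interval -0.16 to 0.09, limma adjusted p = 0.844). BCL2L11 encodes BIM, a potent activator that FOXO factors can induce. It had 6.41, 4.69 and 5.24 FPKM in overexpression libraries, against 6.06, 6.16 and 6.54 FPKM in control libraries. Overexpression replicates 2 and 3 were below every control library and replicate 1 was not, with a log2 fold change of -0.18 (95% interval -0.43 to 0.08, limma adjusted p = 0.564). BBC3 encodes PUMA, a BH3-only protein induced by DNA damage. It had 2.95, 3.33 and 4.64 FPKM in overexpression libraries, against 4.54, 3.25 and 3.84 FPKM in control libraries. The overexpression libraries held both the lowest and the highest BBC3 value, and the log2 fold change of -0.08 (95% interval -0.43 to 0.27, limma adjusted p = 0.875) took the opposite sign without overexpression replicate 1 or control replicate 1, at 0.03 and 0.02.

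**Figure D3:**
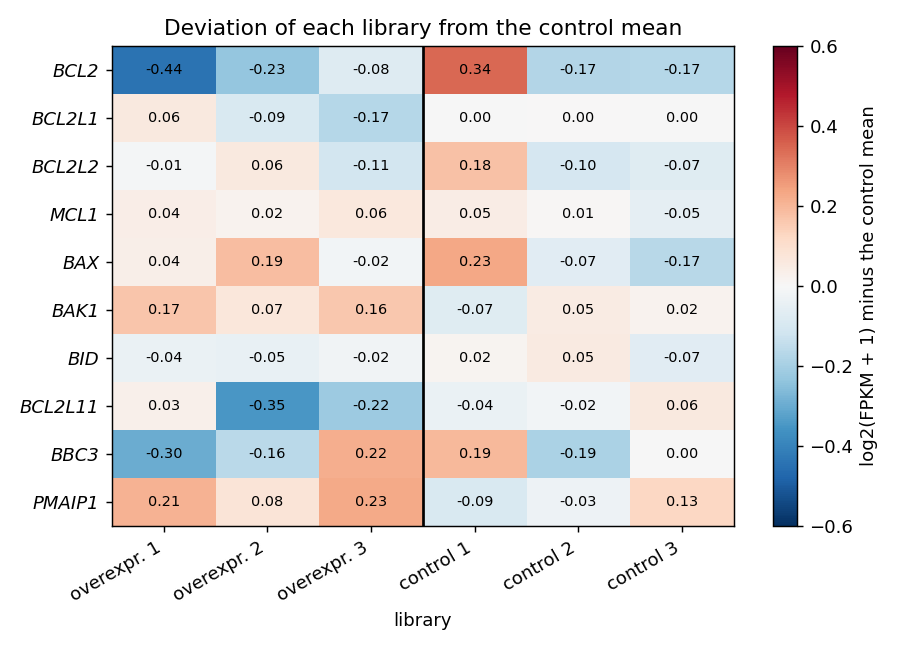
Log2(FPKM + 1) of each member in each library minus the mean of the 3 control libraries, with overexpression libraries on the left. Red is above and blue below the control mean. BCL2, BCL2L2 and BAX are highest in control replicate 1, and the row of BAK1 is above every control library in all 3 overexpression libraries.

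The members varied unequally between libraries of 1 group. The residual SD on the log2 scale was largest for BCL2, at 0.25, and BBC3, at 0.23, the lowest expressed members. BAX, though the most abundant, followed at 0.16. It was under the median of all tested genes for 5 members and above it for 5. Control replicate 1 was the highest of the 6 libraries for BCL2, BCL2L2 and BAX and the lowest for BAK1 and PMAIP1, so it held 5 of the 20 extreme values, as did overexpression replicate 3. The cause of this was not tested.

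The balance between classes was described by ratios of levels within a library, for which no test was made. Effectors to guardians gave 0.661, 0.756 and 0.687 in overexpression libraries, against 0.732, 0.633 and 0.607 in control libraries. BH3-only members to guardians gave 0.272, 0.271 and 0.299 in overexpression libraries, against 0.261, 0.271 and 0.281 in control libraries. Only the members described were summed. BAD, a BH3-only gene averaging 101 FPKM in overexpression and 102 FPKM in control libraries, was left out. Both ratios overlapped between the groups. The ratio of BAX to BCL2, often used as an index of apoptotic priming, was 110.5, 96.7 and 71.6 in overexpression libraries, against 56.7, 76.5 and 70.9 in control libraries. It overlapped through overexpression replicate 3 and rests on a denominator near 2 FPKM. With BCL2L1, the abundant guardian, in place of BCL2, it was 1.10, 1.36 and 1.25 in overexpression libraries, against 1.32, 1.07 and 0.999 in control libraries.

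Other relatives were measured in a list of 14 genes, of which 8 reached the filter and 0 were called in limma, with 2 at an unadjusted p under 0.05. Over all tested genes 12.7% reached that level, which is the share to set beside the counts of the lists that follow. BCL2A1, BCL2L10, BCL2L14, BCL2L15, BMF and HRK did not reach the filter on low values and were not tested. BNIP3L, a mitochondrial receptor for mitophagy, had 27.0, 27.1 and 28.7 FPKM in overexpression libraries, against 32.95, 33.5 and 32.0 FPKM in control libraries. All 3 overexpression values were lower, with a log2 fold change of -0.24 (95% interval -0.37 to -0.12), but the gene did not pass (limma adjusted p = 0.112). BECN1, an autophagy protein that guardians bind, had 58.7, 59.5 and 57.4 FPKM in overexpression libraries, against 64.6, 62.2 and 64.4 FPKM in control libraries (log2 fold change -0.12, limma adjusted p = 0.319). BAD, a BH3-only protein that AKT phosphorylates, averaged 101 ± 7.31 FPKM in overexpression and 102 ± 2.04 FPKM in control libraries (SD, n = 3 each), and BOK averaged 3.06 ± 0.295 FPKM in overexpression and 3.39 ± 0.320 FPKM in control libraries.

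Downstream of the pores, 13 genes of mitochondrial release and the apoptosome were tested and 0 were called in limma, with 2 at an unadjusted p under 0.05. CYCS, the cytochrome c gene, had 119, 140.03 and 126 FPKM in overexpression libraries, against 121, 111 and 109 FPKM in control libraries, with overlap (log2 fold change 0.17, limma adjusted p = 0.343). AIFM1, a flavoprotein released from mitochondria, had 80.1, 68.7 and 73.0 FPKM in overexpression libraries, against 80.6, 88.1 and 87.8 FPKM in control libraries. Its groups did not overlap and its log2 fold change was -0.21 (limma adjusted p = 0.234). CASP9 and APAF1, the core of the apoptosome, had log2 fold changes of -0.13 and -0.11 and did not pass.

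Upstream, 11 of 12 genes linked to BH3-only transcription were tested and 0 were called in limma. At an unadjusted p under 0.05 there were 5, against 12.7% of all tested genes. This list was chosen with earlier results of these data known, so the count is not independent support. DDIT3 encodes CHOP, a stress factor known to induce BCL2L11 and BBC3. It had 43.5, 36.3 and 39.7 FPKM in overexpression libraries, against 30.3, 29.98 and 30.5 FPKM in control libraries. All 3 overexpression values were higher, with a log2 fold change of 0.38 (95% interval 0.23 to 0.54, limma adjusted p = 0.0537). DDIT3 passed without overexpression replicate 2 (log2 fold change 0.44, limma adjusted p = 0.0334). It did not pass with any other single library left out (limma adjusted p between 0.103 and 0.208). TRIB3, a pseudokinase induced by CHOP, had 31.0, 21.7 and 25.2 FPKM in overexpression libraries, against 17.5, 20.6 and 17.5 FPKM in control libraries (log2 fold change 0.46, limma adjusted p = 0.157).

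Of a list of 18 genes that includes GADD45A and SESN2, all tested, 0 were called in limma, with 4 at an unadjusted p under 0.05, against 12.7% of all tested genes, and the median log2 fold change was -0.03. GADD45A, a stress gene of growth arrest, had 55.7, 56.4 and 51.3 FPKM in overexpression libraries, against 47.3, 44.2 and 49.8 FPKM in control libraries (log2 fold change 0.21, limma adjusted p = 0.212). SESN2, which restrains mTORC1 under stress, had 10.5, 7.95 and 9.20 FPKM in overexpression libraries, against 7.14, 7.68 and 7.22 FPKM in control libraries (log2 fold change 0.28, limma adjusted p = 0.298). Both had groups without overlap, as had 7 of the 18 in all, 4 higher and 3 lower, against 18.9% of all tested genes. Of 8 genes that act on family proteins, 0 were called in limma and 0 reached an unadjusted p under 0.05. BTRC, a ubiquitin ligase subunit, averaged 10.5 ± 0.305 FPKM in overexpression and 9.41 ± 0.295 FPKM in control libraries, and DYNLL2, a dynein light chain that binds BMF, averaged 24.7 ± 0.4397 FPKM in overexpression and 26.2 ± 0.543 FPKM in control libraries (SD, n = 3 each). Over these 5 pathway lists together, 58 genes were tested and 0 were called in limma. An unadjusted p under 0.05 was found for 13, 8 higher and 5 lower, against 12.7% of all tested genes. The lists were chosen with earlier results of these data known, so these counts are not independent support.

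**Figure D4:**
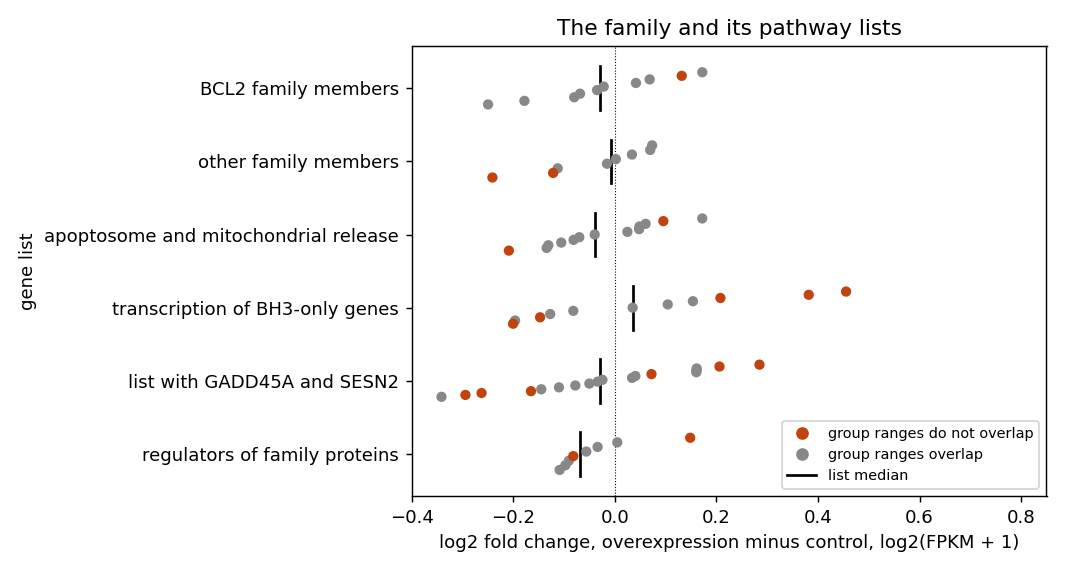
Log2 fold change of each tested gene, overexpression minus control, in the family and 5 pathway lists, on the log2(FPKM + 1) scale. Bars are list medians, and orange points are genes whose 3 overexpression values lie all above or all below every control value. The family spans -0.25 to 0.17, and DDIT3 and TRIB3 are the rightmost points of the transcription list.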

How the data were processed

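The authors deposited 1 table per library of gene-level FPKM, rounded to 2 decimals. Per the submitters' processing notes, the tools were RSEM 1.3.1, Cufflinks 2.2.1, edgeR, Bowtie and TopHat and the build was hg18. The sources used here do not state which tool made the values or whether counting used strand. The tables list 20330 Ensembl genes and assembled loci, and those of 5 libraries end within a line. Of the loci, only the 68 listed in all 6 tables were kept. The complete table, of overexpression replicate 1, also lists 68 loci, the fewest of the 6. Symbols came from a table of gene names, which gave 18980 of the identifiers a symbol, and sequences and coordinates from GENCODE 29 on GRCh38.

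Groups were taken from the titles. Genes whose 6 libraries averaged 1 FPKM or more were compared on log2(FPKM + 1) with limma 3.58.1 (trend, two-sided, group as the only term, Benjamini-Hochberg) in R 4.3.3. The fit was tested on simulated data whose planted changes were larger than any member estimate. That test therefore does not show whether changes as small as those of the members would be found. Summaries used Python 3.11.15, pandas 2.3.3, numpy 2.4.6, scipy 1.17.1 and Biopython 1.88. All members are named, with up to 2 genes of lowest p per pathway list unless more passed; others were chosen after their values were seen. Members and lists were chosen with earlier results of these data known. Values of some single genes are not reported here.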

Additional observations from a re-analysis of the deposited data

How the results depend on the processing

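Under 13 alternatives, 0 members were called in limma in each, and the lowest adjusted p was 0.151, for PMAIP1 with array quality weights. Of 130 member values, 124 kept their direction and 6 reversed. Among these 6, BBC3 turned to 0.0381 with array quality weights. Outside the 130 values, BCL2L2 turned to 0.0650 when summed with its readthrough, an alternative chosen after seeing the data. Leaving out each library in turn gave log2 fold changes from -0.0731 to 0.0656 for BCL2L2, from -0.0148 to 0.185 for BAX and from -0.229 to 0.0276 for BBC3, while the other 7 members kept their sign. DDIT3 passed with array quality weights and without overexpression replicate 2, and its adjusted p in limma lay between 0.0227 and 0.234 over its alternatives. The count over all genes moved from 61 to 22 with no filter on low values, to 1 without a trend in limma, to 197 with array quality weights, and to between 1 and 63 with 1 library left out. The labels do not say whether same-numbered libraries shared anything beyond the number. Their deviations correlated at -0.04, -0.06 and 0.04, which cannot decide this. The replicate block gave 19 genes and 0 members. The cause of these changes was not tested. Unknown depth limits statements on BCL2 and BBC3 most, since they are the lowest members.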
